A study of Homo sapiens with 6 samples.

Results

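The NRF2 antioxidant response genes described here are 10 of the 20163 protein-coding genes of the annotation. They were chosen by name for their known place in the NRF2 pathway, and comprised NFE2L2, KEAP1, SQSTM1, HMOX1, NQO1, GCLC, GCLM, SLC7A11, TXNRD1 and SRXN1. Each gene was read through the SMARCA4 peaks that overlapped its annotated span plus 20 kb on each side, and 38 of the 28265 peaks in the deposited list did so. The chromatin came from K562, an established human chronic myelogenous leukaemia line with erythroid features, grown without any treatment named in the labels. Crosslinking used disuccinimidyl glutarate (2 mM, 30 min) followed by formaldehyde (1%, 10 min), and sonication gave fragments of 150 to 400 bp. SMARCA4, the ATPase of BAF (SWI/SNF) chromatin remodelling complexes, was immunoprecipitated in 3 libraries, and 3 libraries of input chromatin carried the same replicate numbers. The series' design text calls the replicates technical and the study's text calls them biological. The design text also counts 1 input where the labels list 3, and a description field of the ChIP libraries names a G4 experiment where title and antibody name SMARCA4. The peak list pools the 3 ChIP libraries and carries positions alone, with no value per replicate and no peak height, and the depth of the libraries was not used here.

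NRF2, encoded by NFE2L2, is a basic leucine zipper factor that is held low by KEAP1, an adaptor that hands it to a ubiquitin ligase. Electrophiles and oxidants modify KEAP1, and NRF2 then accumulates, pairs with small MAF proteins and binds antioxidant response elements (AREs) near genes of glutathione synthesis, thiol repair, quinone reduction and heme breakdown. The ARE shares its first bases with the binding site of AP-1 (FOS and JUN dimers), and in erythroid cells NF-E2 and the repressor BACH1 bind closely related elements.

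Motifs were searched as letters on both strands. The AP-1 site was TGACTCA, the ARE core was TGACNNNGC, and the composite site was TGACTCAGC, which holds an AP-1 site and an ARE core in the same bases. A match describes the letters and does not show that a factor was bound. The 2 HMOX1 stretches are printed because they carried 4 of the 9 composite sites found inside peaks of the gene windows. All coordinates are hg19 (GRCh37), all sequences run 5′ to 3′ on the strand named, and capitals mark ARE cores.
HMOX1 distal peak 8.9 kb upstream, chr22:35767992-35768127, minus strand: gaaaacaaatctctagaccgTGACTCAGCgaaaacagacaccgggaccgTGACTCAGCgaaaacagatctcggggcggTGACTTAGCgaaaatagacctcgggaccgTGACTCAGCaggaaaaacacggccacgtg
HMOX1 distal peak 4.0 kb upstream, chr22:35773065-35773177, minus strand: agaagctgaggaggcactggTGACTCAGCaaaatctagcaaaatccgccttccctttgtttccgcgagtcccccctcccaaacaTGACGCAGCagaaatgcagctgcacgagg

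The other 5 composite sites inside peaks are printed with 20 bases on each side, since they carry the comparison of composite sites between genes. None of these bases was in an annotated UTR, and capitals mark the composite site.
SQSTM1 promoter peak 1.5 kb upstream, chr5:179246565-179246613, minus strand: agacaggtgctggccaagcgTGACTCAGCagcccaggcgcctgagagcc
SQSTM1 promoter peak over the TSS, chr5:179247533-179247581, minus strand: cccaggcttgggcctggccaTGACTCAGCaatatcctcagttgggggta
NQO1 promoter peak over the TSS, chr16:69760890-69760938, minus strand: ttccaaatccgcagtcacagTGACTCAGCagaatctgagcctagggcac
GCLC promoter peak 3.0 kb upstream, chr6:53413027-53413075, plus strand: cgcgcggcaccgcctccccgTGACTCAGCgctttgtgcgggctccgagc
GCLC promoter peak 70.8 kb upstream, chr6:53480832-53480880, minus strand: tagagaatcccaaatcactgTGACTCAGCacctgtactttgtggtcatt

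The 7 AP-1 sites inside peaks that were not part of a composite site are printed with 11 bases on each side, capitals marking the AP-1 letters. The last line shows the ARE core at the GCLM start, an example chosen after its values were seen, of which 11 of 29 bases are annotated as UTR. KEAP1, which like GCLM had no AP-1 site in a peak, had 2 ARE cores that are given by position alone.
NFE2L2 distal peak in intron 1, chr2:178107335-178107363, plus strand: ttcctcagtcaTGACTCAatctaagaaat
SQSTM1 promoter peak 1.5 kb upstream, chr5:179246098-179246126, plus strand: tcatgggacgcTGACTCActgccggccag
GCLC promoter peak 70.8 kb upstream, chr6:53480791-53480819, minus strand: taattctattgTGACTCAgacgttgctcc
SLC7A11 distal peak in intron 2, chr4:139156963-139156991, minus strand: acagagtcaaaTGACTCAtttccttatat
TXNRD1 distal peak in intron 1, first site, chr12:104613528-104613556, plus strand: atgtgtttataTGACTCAtatggcaaaag
TXNRD1 distal peak in intron 1, other site, chr12:104613939-104613967, minus strand: cttggggcatcTGACTCAcccttatcagc
SRXN1 promoter peak over the TSS, chr20:634099-634127, plus strand: cccgggcgggcTGACTCAgggtgagtttg
GCLM promoter peak over the TSS, ARE core, chr1:94375002-94375030, plus strand: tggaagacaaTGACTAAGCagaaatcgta

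A peak was called a promoter peak of a gene when it lay within 1 kb of the start (TSS) of any protein-coding transcript of that gene, a peak at another promoter when it met this rule only for another coding gene, and distal otherwise. Of the 38 peaks, 20 were own promoter peaks, 3 were at another gene's promoter and 15 were distal. Each of the 10 genes had a peak in its window, against 67.9% of all protein-coding genes. An own promoter peak was present at 9 of 10 genes (Wilson 95% interval of the share 59.6 to 98.2%), against 46.7% of coding genes, and HMOX1 was the exception. Counted at the canonical TSS alone, 9 of 10 genes had the start base inside a peak, against 34.3% of coding genes. A distal peak was present at 9 of 10 genes, against 44.3% of coding genes, and GCLM was the exception. So most members had SMARCA4 both at the start and away from it, while HMOX1 had distal peaks alone and GCLM had no distal peak.

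**Figure D1:**
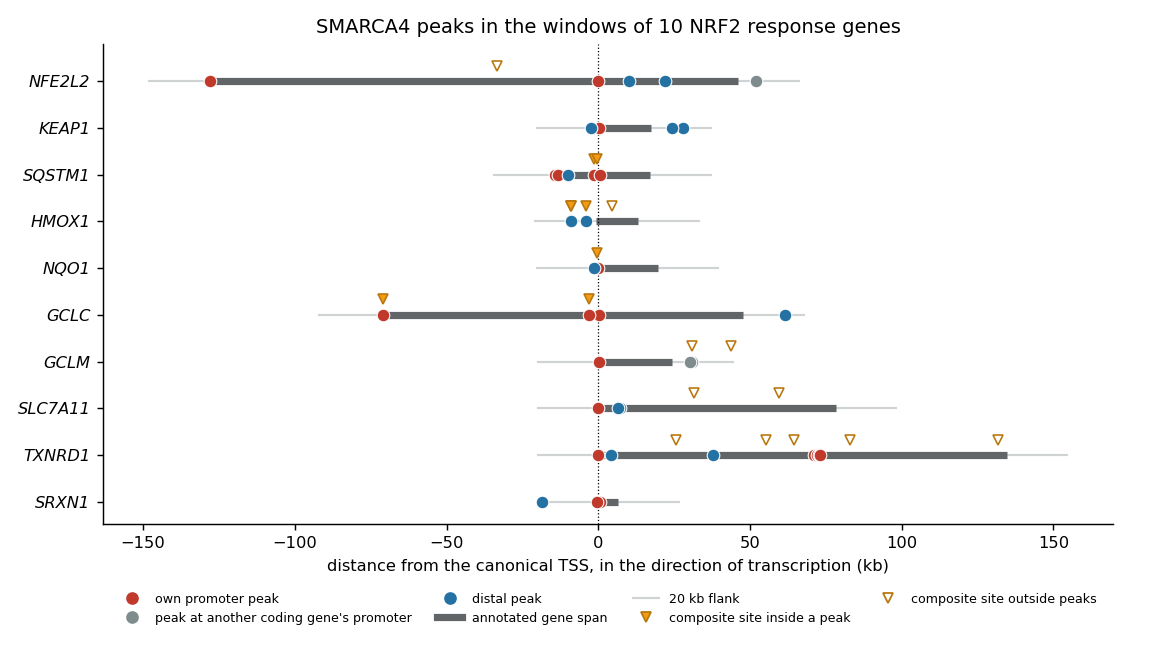
Positions of the 38 SMARCA4 peaks (circles, coloured by class) against distance in kb from each gene's canonical TSS, with composite sites as triangles, filled inside a peak and open outside. HMOX1 has 2 distal peaks and no peak at its start, and 9 of the 20 composite sites are filled.

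The median member window held 3.5 peaks, against 2 in the windows of all coding genes (quartiles 0 and 4), at similar median window lengths of 67969.5 and 67219 bp. TXNRD1 had the most peaks, 7, and 10.7% of coding genes with a window of like length (0.8 to 1.25 times its own) had at least as many. This rank is for peaks as listed, and TXNRD1 would tie with NFE2L2 if peaks at most 500 bp apart were merged. HMOX1 and NQO1 had the fewest, 2 each, and 52.0% and 53.8% of coding genes of like window had as many. By peak number the members therefore ran from the middle of the coding genes to their upper part.

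**Figure D2:**
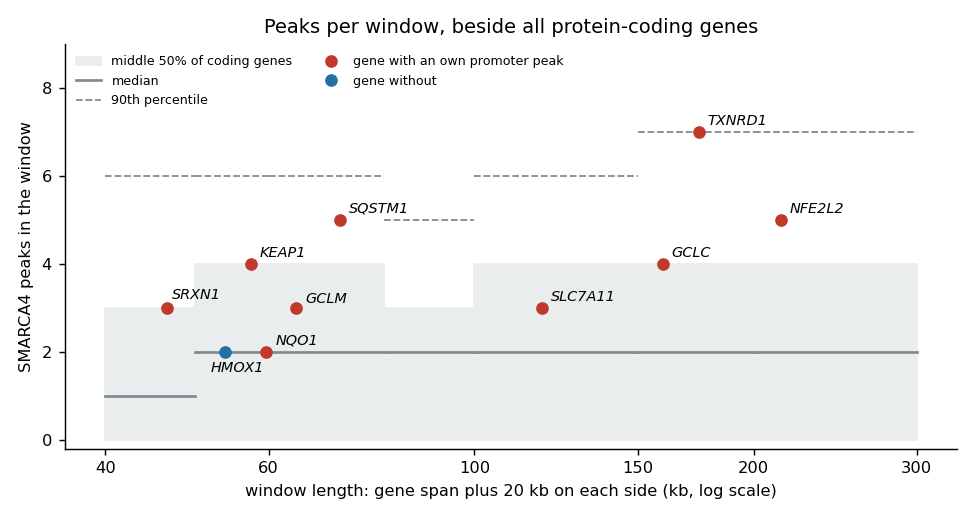
SMARCA4 peaks in each gene window (y) against window length in kb (x, log scale), with the median, middle 50% and 90th percentile of all protein-coding genes by window length. TXNRD1, at 7 peaks, lies on the dashed line, and HMOX1 and NQO1, at 2, lie on the median.

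Peaks in the member windows had a median width of 478.5 bp (95% interval 327 to 818 bp), against 368 bp (364 to 372 bp) over the whole list, so the interval of the members took in the median of all peaks. Own promoter peaks of the members had a median of 831.0 bp, against 421 bp for all promoter peaks. Distal peaks had medians of 316 bp for the members and 341.0 bp for all distal peaks. The medians were thus further apart for promoter peaks than for distal peaks, and neither difference was tested.

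**Figure D3:**
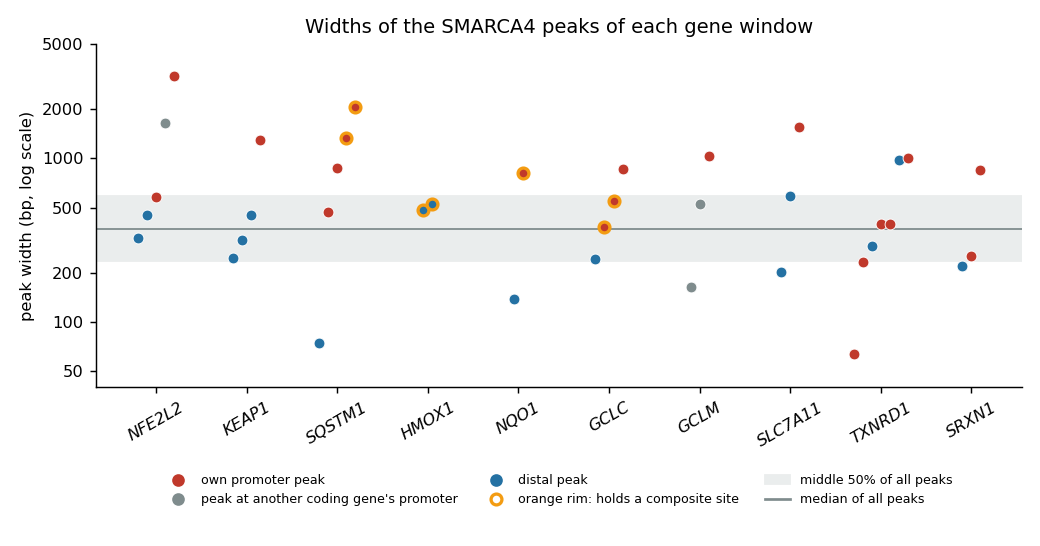
Width in bp (log scale) of every peak in the 10 gene windows, coloured by class, over the median and middle 50% of all 28265 peaks. The widest, 3191 bp, lies over the NFE2L2 start, and the peaks with a composite site (orange rims) run from 382 to 2065 bp.

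NFE2L2, which encodes NRF2 itself, had a promoter peak of 3191 bp at chr2:178127880-178131070, with its centre 20 bp from the canonical TSS. Only 0.0637% of all peaks were at least as wide. It held 3 ARE cores, 5 G4 motifs and no AP-1 site. A pair of distal peaks lay in intron 1, of 450 bp centred 21988 bp downstream of the TSS and 327 bp centred 10058 bp downstream, and the first held the one AP-1 site of this gene that lay in a peak. The annotated span of NFE2L2 reaches 128.0 kb upstream to a peak of 581 bp that also lies at the start of AGPS, and a peak of 1648 bp lay at the start of the downstream neighbour HNRNPA3. The peak of 581 bp cannot be assigned to one gene by position, and the peak of 1648 bp met the promoter rule only for HNRNPA3.

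KEAP1, the NRF2 adaptor, had 4 peaks, of which the promoter peak of 1294 bp at chr19:10613102-10614395 covered the TSS. That peak held 2 ARE cores whose starts were 23 bp apart, 535 and 558 bp downstream of the TSS. Its 3 distal peaks, of 248, 316 and 450 bp, held neither an ARE core nor an AP-1 site. KEAP1 was thus one of 2 members, with GCLM, that had no AP-1 site in any peak.

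SQSTM1, the autophagy receptor p62, which sequesters KEAP1, had 2 wide peaks around its canonical start. The peak at chr5:179247372-179249436, of 2065 bp, covered the TSS, and a peak of 1334 bp at chr5:179245761-179247094 ended 811 bp upstream of it. Each held 1 composite site, at 348 and 1316 bp upstream of the TSS, and both composite sites of the SQSTM1 window were therefore inside peaks. The other own promoter peaks, of 877 and 473 bp, also lay at the start of MGAT4B and cannot be assigned to one gene, and a distal peak measured 75 bp.

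HMOX1, the heme oxygenase that opens the heme ring, had no peak at its promoter, and the edge of the nearest peak lay 3746 bp from the canonical TSS. The peak centred 4.0 kb upstream, at chr22:35772820-35773343, was 524 bp wide and held 1 composite site and a further ARE core 64 bp away. The peak centred 8.9 kb upstream, at chr22:35767926-35768409, was 484 bp wide and held 3 composite sites and 4 ARE cores. Those 4 cores started 29, 29 and 29 bp apart, and the 4 units of 29 bases that end in them shared 23 to 26 identical bases in pairwise comparison. Of the 5 composite sites in the HMOX1 window, the one outside peaks lay 4635 bp downstream of the TSS.

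The 8.9 kb peak was 1 of 4 peaks in the whole list with at least 3 composite sites, the other 3 holding 5, 7 and 39. Both HMOX1 peaks were classed as distal with respect to coding genes, but each lay within 1 kb of the start of an unnamed noncoding transcript. Absence of a promoter peak together with at least 2 distal composite peaks, a combination chosen after the HMOX1 values were seen, was found at 18 coding genes, or 0.0893%. No further peak lay between 20 and 50 kb outside the gene.

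NQO1, a quinone reductase, had the other arrangement, with a composite site inside the promoter peak. That peak, chr16:69760297-69761114, was 818 bp wide and covered the TSS, and the composite site lay 451 bp upstream of the start. It was the only composite site in the NQO1 window. A distal peak of 139 bp at 1.5 kb upstream lay near the divergent noncoding gene NQO1-DT.

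**Figure D4:**
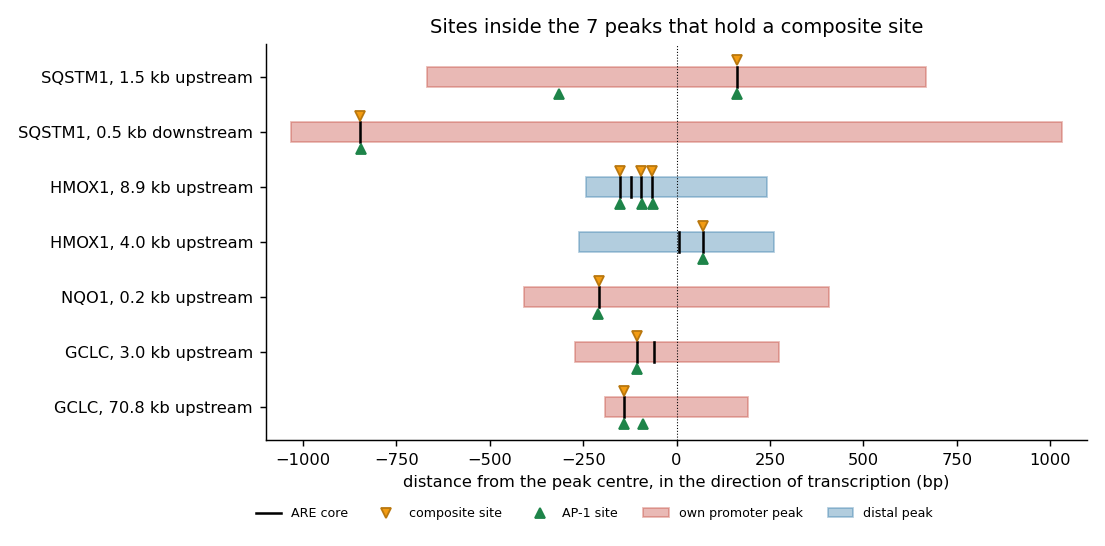
ARE cores (lines), composite sites and AP-1 sites (triangles) inside the 7 peaks that held a composite site, drawn to scale against distance in bp from the peak centre. The 4 ARE cores of the HMOX1 peak 8.9 kb upstream lie on 1 side of its centre.

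Glutathione synthesis was covered by GCLC and GCLM, the catalytic and modifier subunits of glutamate-cysteine ligase, and SLC7A11, the cystine carrier. GCLC had a peak of 857 bp over its canonical TSS, at chr6:53409187-53410043, with neither an AP-1 site nor an ARE core. Its 2 composite sites lay in other peaks, of 546 bp at 3.0 kb upstream and of 382 bp at 70.8 kb upstream. Both of these peaks counted as promoter peaks through starts of other annotated GCLC transcripts, and against the canonical start alone they would be distal. The peak at 70.8 kb also lay within 1 kb of the start of the noncoding gene LINC01564.

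GCLM had a promoter peak of 1029 bp at chr1:94374396-94375424 that held 1 ARE core, 30 bp upstream of the TSS. Its other peaks, of 164 and 524 bp, lay at the start of the neighbour DNTTIP2. The 2 composite sites in the GCLM window were outside peaks, though one was 25 bp from the edge of the peak of 164 bp.

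SLC7A11 had a peak of 1551 bp over its TSS, at chr4:139162709-139164259, without an AP-1 site or an ARE core. Peaks of 203 and 593 bp lay in intron 2, and the wider one held an AP-1 site 6526 bp downstream of the TSS and 1 ARE core. The 2 composite sites of this window, 24312 and 52553 bp from the nearest peak, were both outside peaks. For SLC7A11, as for GCLC, the AP-1 sites and ARE cores inside peaks thus lay away from the peak at the canonical start.

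TXNRD1, the cytosolic thioredoxin reductase, had a peak of 397 bp over its canonical TSS with 2 ARE cores, 4 and 95 bp upstream of the start. A distal peak of 974 bp in intron 1, 4.1 kb downstream, held 2 AP-1 sites. A further 4 peaks, of 1012, 64, 232 and 395 bp, lay 71.2 to 73.0 kb downstream around starts of other coding transcripts. The TXNRD1 window had 5 composite sites, as many as HMOX1, and 0 of them lay in a peak, the nearest being 6173 bp away. HMOX1 and TXNRD1 were thus alike in the number of composite sites in the window and differed in how many were inside peaks, 4 against 0. Their windows were not of like length, 53854 bp for HMOX1 and 174529 bp for TXNRD1, so the density of sites differed. Of the 4 HMOX1 sites inside peaks, 3 lay in 1 peak.

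SRXN1, the sulfiredoxin that repairs overoxidised peroxiredoxins, had a peak of 844 bp over its TSS, at chr20:633805-634648, with an AP-1 site 269 bp upstream. A peak of 255 bp at 0.7 kb downstream held an ARE core, and a distal peak of 220 bp lay 18.5 kb upstream. SRXN1 had no composite site in its window.

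Across the members, 8 of 10 genes had a peak with an AP-1 site (interval of the share 49.0 to 94.3%), against 23.8% of coding genes. All 10 had a peak with an ARE core, against 35.4%. A peak with a composite site was found at 4 of 10 (16.8 to 68.7%), namely SQSTM1, HMOX1, NQO1 and GCLC, against 6.25% of coding genes. These 4 are among the 8 with an AP-1 site, since a composite site holds one. These genes were chosen for their known place in the NRF2 pathway, and no test was made of whether the shares are particular to them.

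Counted by peak, 11 of 38 held an AP-1 site (28.9%, 17.0 to 44.8%), against 17.3% of all peaks and 19.5% of peaks of like width (within 10% of each member peak). An ARE core was in 17 of 38 (44.7%, 30.1 to 60.3%), against 23.2% of all peaks and 28.9% of those of like width. A composite site was in 7 of 38 (18.4%, 9.22 to 33.4%), against 3.58% and 4.21%. Since a composite site holds both, these 7 are among the 11 peaks with an AP-1 site and the 17 with an ARE core. Over the whole list 1013 of the 4892 peaks with an AP-1 site held a composite site. The member peaks with an AP-1 site and no composite site lay at NFE2L2, SLC7A11, TXNRD1 and SRXN1. The shares are thus not separate results. The 7 peaks with a composite site lay at 4 genes, so peaks are not independent observations, and the intervals cover counting error only.

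By class, a composite site was in 5 of 20 own promoter peaks, against 1.49% of all promoter peaks and 2.39% of those of like width. It was in 2 of 15 distal peaks, against 5.08% of all distal peaks and 5.20% of those of like width. An AP-1 site was in 6 of 20 own promoter peaks, against 7.61% and 11.6%, and in 5 of 15 distal peaks, against 24.3% and 23.2%. Of these peaks with an AP-1 site, 5 of 6 promoter and 2 of 5 distal peaks held a composite site. Over the whole list 176 of 898 promoter and 837 of 3994 distal peaks with an AP-1 site did. Over the whole list AP-1 and composite sites were thus more frequent in distal than in promoter peaks, while the composite sites of the members lay in 5 promoter and 2 distal peaks. That split rests on the 2 GCLC peaks that are promoter peaks only by noncanonical starts. Against canonical starts alone these 2 would be distal, and more distal than promoter peaks of the members would hold a composite site.

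Within the central 200 bp, 4 of 38 peaks held an AP-1 site, against 12.3% of all peaks, 7 held an ARE core, against 13.4%, and 2 held a composite site, against 2.57%. In the central bases the AP-1 share of the members was thus not above that of all peaks. The ARE core and composite shares were, on small counts. Both peaks with a central composite site were at HMOX1, so that share rests on a single gene. Of the distal peaks with a site, 3 of 5 had an AP-1 site, 3 of 4 an ARE core and 2 of 2 a composite site in the central bases. Of the own promoter peaks with a site, 1 of 6, 4 of 12 and 0 of 5 did. Over the whole list the central bases held an AP-1 site in 18.4% of distal and 3.81% of promoter peaks (24.3% and 7.61% in whole peaks), and a composite site in 3.94% and 0.661% (5.08% and 1.49%). Over the whole list too, promoter peaks with a site had it in the central bases less often than distal peaks with a site. This contrast was thus not a feature of the members alone. Promoter peaks were also wider than distal peaks, with medians of 421 and 341.0 bp over the whole list. The members' own promoter and distal peaks had medians of 831.0 and 316 bp. A fixed 200 bp is a smaller part of a wider peak, and the contrast was not corrected for width.

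**Figure D5:**
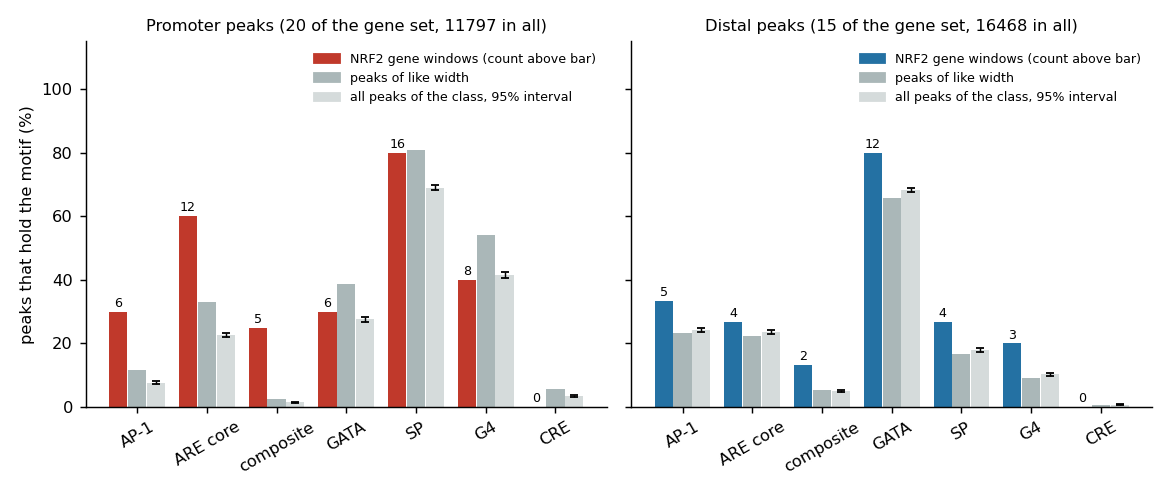
Percent of peaks that held each motif, for promoter peaks and distal peaks, in the gene windows (coloured, with the count above each bar), in peaks of like width, and in all peaks of the class with Wilson 95% intervals. The composite site is in 5 of 20 promoter peaks of the gene windows.

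Counted over all 38 peaks, GATA and G4 motifs were near the level of peaks of like width. The GATA motif was searched as AGATAA and as AGATAG, and also with T as first base, as TGATAA and as TGATAG. It was in 19 of 38 peaks, against 51.3% of all peaks and 54.7% of those of like width. By class it was in 6 of 20 own promoter peaks, against 27.6% of all promoter peaks and 38.8% of those of like width, and in 12 of 15 distal peaks, against 68.3% and 65.7%. A G4 motif, 4 runs of at least 3 G with loops of 1 to 7 bases, was in 12 of 38, against 23.4% of all peaks and 30.6% of those of like width. By class the G4 motif was in 8 of 20 own promoter peaks, against 41.6% of all promoter peaks and 54.2% of those of like width, and in 3 of 15 distal peaks, against 10.3% and 9.02%. The counts by class are small, and no difference between them and the background was tested. The SP motif (GGGCGG) was in 22 of 38, against 39.3% of all peaks and 47.3% of those of like width. By class it was in 16 of 20 own promoter peaks, against 68.9% of all promoter peaks and 80.8% of those of like width. It was in 4 of 15 distal peaks, against 18.0% and 16.6%. The CRE (TGACGTCA) was in 0 of 38, which allows a share of up to 7.89%, against 1.81% of all peaks.

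Read from the side of the sites, 16 of the 175 AP-1 sites in the member windows lay in a peak (9.14%, 5.71 to 14.3%), against 1.28% of such sites in the genome and 1.78% in the windows of all coding genes. For the ARE core, 26 of 357 did (7.28%, 5.02 to 10.5%), against 0.903% in the genome and 1.27% in coding windows. For the composite site, 9 of 20 did (45.0%, 25.8 to 65.8%), against 3.30% in the genome and 4.43% in coding windows. These 9 are also counted among the 16 AP-1 sites and the 26 ARE cores in peaks, so the shares are not separate results. In coding windows 863 of the 4647 AP-1 sites in peaks were part of a composite site. The members' windows held 1.96 composite sites per 100 kb, against 1.18 in coding windows, and 17.2 AP-1 sites, against 15.8. The members therefore differed from other coding windows more in the share of composite sites inside peaks than in the density of such sites. Peaks also took up a larger part of the member windows. The member peaks held 26069 bp, in windows of 1019988 bp. The whole list held 13073868 bp, which takes in peaks outside coding windows, and coding windows held 1645714203 bp. The shares of sites were not corrected for this. The 9 sites lay at 4 genes, HMOX1 with 4, SQSTM1 and GCLC with 2 each and NQO1 with 1, so they are not 9 independent observations.

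RefSeq promoters (250 bases before to 50 after each start, GRCh38.p14) were matched for 8 of 10 members, all but HMOX1 and SLC7A11. An ARE core was in 2 of the 8, GCLM and TXNRD1, against 13.6% of 27305 promoters. AP-1 and composite sites were in 0 of the 8, against 4.92% and 0.564%. A G4 motif was in 5 of the 8, against 24.1%, and an SP motif in 6, against 44.6%.

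A wider list of 47 NRF2 pathway genes, none of them a member, had an own promoter peak at 31 (66.0%), against the 46.7% of all coding genes. Regulators of the pathway had one at 9 of 10 genes, and NFE2, which encodes the erythroid NF-E2 subunit, had 18 peaks in its window, MAFG 10 and NFE2L3 9. Genes of heme and iron handling had one at 4 of 4, led by FTH1 with 9 peaks, BLVRB with 8 and BLVRA with 5. Detoxification enzymes had one at 2 of 9 and efflux pumps at 0 of 4. Among these 4 groups, own promoter peaks were thus more frequent at regulators and heme and iron genes than at detoxification and efflux genes.

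Among the remaining groups, own promoter peaks were present at 5 of 7 glutathione genes, led by SLC3A2 with 13 peaks and GSR with 8, and at 3 of 3 thioredoxin and peroxiredoxin genes (PRDX1, PRDX6 and TXN). Of the genes of NADPH supply, TALDO1 and IDH1 had 4 peaks each in their windows. Own promoter peaks were present at 3 of 4 other targets, led by SESN2 with 9 peaks. The AKR1C1, AKR1C2 and AKR1C3 windows had 3 peaks each. Windows of neighbouring genes such as these can overlap, so the counts need not be of separate peaks. The AKR1C genes are also closely related in sequence, and whether reads could be placed uniquely there was not tested. AKR1B10, ALDH3A1 and ABCG2 had no peak in their windows. In the wider list 27 of 47 genes had a peak with an AP-1 site, against 23.8% of all coding genes. A peak with a composite site was found at 13 of the 47, against 6.25% of all coding genes. These 13 are among the 27, since a composite site holds an AP-1 site. Over all coding genes, 1260 of the 4806 with an AP-1 peak had a peak with a composite site.

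The K562 label was checked with genes of known lineage. An own promoter peak was present at 6 of 6 erythroid and leukaemia-line factors (GATA1, TAL1, KLF1, GFI1B, NFE2 and LMO2) and at none of CD3E, PAX5, ALB, INS and MYOD1, which are genes of other lineages.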

How the data were processed

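Per the study's methods, the authors used cutadapt for trimming and BWA for alignment to hg19, removed duplicates with Picard and SAMtools, called peaks in each replicate with MACS2 and used bedtools to keep regions found in 2 of 3 replicates. The deposited list gives start and end coordinates of these regions, with no score. Peaks were compared with GENCODE 44 (mapped to GRCh37) by at least 1 bp of overlap, and motifs were searched in the GRCh37 sequence with Python 3.11.15, numpy 2.4.6 and scipy 1.17.1. Overlap and motif code was tested on simulated data. Shares carry Wilson 95% intervals, which cover counting error only. No test was run. All 10 members were named, then genes with a start within 1 kb of a member peak, and from the wider list up to 3 genes a group with the most peaks and all without a peak. A gene of the wider list and a gene of the lineage check are not reported here. Members and lists were chosen with earlier results of these data known. Site shares and densities over coding windows, the HMOX1 repeat units and the choice of printed sequences were added after values were seen. Alternatives varied the flank, promoter rule, peak width, merging and motif rule.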

Additional observations from a re-analysis of the deposited data

How the results depend on the processing

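Of 73 alternative values, 69 stayed within their limit (1.5 times a count, or the 95% interval of a share or median) and 4 moved. With the central 200 bp of each peak in place of the whole peak, peaks with an AP-1 site numbered 4 (11 in whole peaks), distal peaks with one 3 (5) and peaks with an ARE core 7 (17). Fewer bases were searched in that setting. With TGANTCA in place of TGACTCA, 5.09% of sites lay in a peak (9.14%). Own promoter peaks were found at 9 of 10 genes under every alternative tried for that count. Genes with a distal peak (9) numbered 7 with peaks of at least 200 bp or with 10 kb on each side. They numbered 8 with all transcripts, and 10 with 50 kb on each side or with 1 kb upstream of a TSS only. In those last 2 settings GCLM was no longer an exception. A stricter ARE, the extended ARE, was in 13 peaks (17 with the ARE core). It asks for A or G on each side of the ARE core and was chosen after seeing the data. Its share over all peaks is not given, so this count carries no comparison with other peaks. Distal peaks numbered 21 with canonical starts alone (15). No leave-one-replicate-out value could be computed and no stricter peak threshold could be set, because the list pools the 3 replicates and carries no score. No paired analysis was possible because the list has no value per replicate. The list carries no read counts, so a window without a peak does not show absence of SMARCA4. The depth of the libraries was not used here, and expression of the genes was not analysed here.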
